A study of Homo sapiens with 12 samples.

Results

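The genes described here are those of the proteins that remove and read N6-methyladenosine (m6A) on RNA: the erasers FTO and ALKBH5, the YTH-domain readers YTHDF1, YTHDF2, YTHDF3, YTHDC1 and YTHDC2, and the readers IGF2BP1, IGF2BP2 and IGF2BP3. They were taken by gene name, and all 10 were found among the 19923 genes counted. RNA was sequenced from SK-N-BE2 and NGP, neuroblastoma cell lines with amplified MYCN and a genotype given as WT, after 6 days with STM2457, an inhibitor of the m6A methyltransferase METTL3, or with DMSO as the control. SK-N-BE2 received 12 µM STM2457 and NGP 1 µM, and each of the 4 groups had 3 replicates. Both lines grew in RPMI1640 medium with serum. Nothing states that the replicates were separate cultures, so p-values measure the spread between these libraries, which may be technical.

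In cells a complex built around METTL3 and METTL14 methylates adenosines of messenger RNA, and FTO and ALKBH5 can remove the methyl group again. YTH-domain proteins bind the mark directly: the YTHDF proteins act in the cytoplasm, where YTHDF2 brings transcripts to decay, YTHDC1 acts in the nucleus on splicing and export, and YTHDC2 is an RNA helicase. IGF2BP proteins stabilise transcripts. IGF2BP1 and IGF2BP3 are mostly expressed in the embryo and in tumours, and IGF2BP1 is known as an oncogenic factor in neuroblastoma. All values below are messenger RNA levels. Neither proteins nor m6A itself were measured in these libraries.

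The libraries held between 47242379 and 58159937 counted reads. METTL3 itself was higher with the inhibitor in both lines, by 0.52 (SE 0.08) on the log2 scale in SK-N-BE2 and by 0.92 (SE 0.11) in NGP. A drug that acts on the protein leaves no direct mark in these counts, so this does not check the treatment labels. Of 9 markers of adrenergic neuroblastoma, 8 reached 1 CPM (counts scaled to a common library size) in each group, and in NGP with DMSO the one below was TH, at 0.514 CPM. The summed CPM of 4 leukocyte markers lay between 0.383 and 0.527 in the SK-N-BE2 controls and between 1.04 and 1.44 with STM2457, and was at most 0.0635 in NGP. A sum over 3 endothelial markers lay between 7.17 and 11.2 CPM in the SK-N-BE2 controls and between 5.92 and 7.84 CPM with STM2457, with 3 and 1 of the markers at 1 CPM or more, and was at most 0.862 CPM in NGP. The sum over 5 fibroblast and mesenchymal markers, of which 3 reached 1 CPM in SK-N-BE2 and 4 in NGP, moved with the treatment. It lay between 41.0 and 53.3 CPM in the SK-N-BE2 controls and between 69.3 and 73.7 CPM in the treated SK-N-BE2 libraries. For NGP the ranges were 196.0 to 219.3 CPM and 441.6 to 498.3 CPM. A sum over 4 epithelial markers lay between 4.09 and 5.42 CPM in SK-N-BE2 controls and between 1.13 and 1.73 CPM with STM2457. The part of these shifts in the results below was not tested, and fewer cells of a type cannot be told apart from less RNA per cell. The sequencing run named in the file headers differs between the lines, so line, run and dose cannot be told apart in any comparison between them.

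NGP DMSO replicate 1 stood apart from the other 2 NGP control libraries: its median absolute log2 deviation from them was 0.309, where that of the other 11 libraries from their own groups was at most 0.207. This deviation followed the exon length of genes (Spearman correlation -0.581 across 9801 genes, which are not independent) and the GC content of transcripts (0.577). Such correlations were not particular to it, and that with exon length was 0.569 in SK-N-BE2 DMSO replicate 1 and 0.588 in NGP DMSO replicate 2, the latter set against a mean that includes replicate 1. Compared with the mean of the other 2, it held less IGF2BP3 (log2 ratio -1.03), YTHDF3 (-0.73), YTHDC2 (-0.57) and FTO (-0.49), while ALKBH5, YTHDF1 and YTHDF2 differed by at most 0.09. The change of each tested member in NGP is therefore given with and without this library, and other NGP values where leaving it out changed a call or moved a called value by over 1.5 times.

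The members differed widely in level. Per exon length (RPKM, the same scaling per kilobase of exon), YTHDF2 led in SK-N-BE2 with DMSO at 90.4 ± 9.54 (SD, n = 3), followed by YTHDF1 at 42.6 ± 3.61, ALKBH5 at 28.3 ± 2.22, YTHDF3 at 16.1 ± 1.30 and YTHDC1 at 10.98 ± 1.14, with no overlap between neighbours in this order. IGF2BP3 (5.15 ± 0.981) and YTHDC2 (4.60 ± 0.261) overlapped, and FTO stood at 3.16 ± 0.274. IGF2BP1 and IGF2BP2, both at or below 0.0378 RPKM in each of these libraries, overlapped at the bottom. In NGP with DMSO the order was YTHDF2 at 46.6 ± 0.778, YTHDF1 at 38.5 ± 1.74, and then IGF2BP1 at 31.9 ± 3.86, whose range overlapped that of ALKBH5 at 28.1 ± 1.46. YTHDF3, YTHDC2 and YTHDC1 followed between 8.46 and 11.1 RPKM with overlapping ranges, then IGF2BP3 (4.95 ± 1.76) and FTO (4.36 ± 0.807), which also overlapped. Without NGP DMSO replicate 1 no neighbours in this NGP order overlapped. The order depends on the length used: by canonical transcript length YTHDC2 (16.1 RPKM) stood above YTHDF3 (13.5), and IGF2BP3 (9.88) above YTHDC1 (9.54), in NGP with DMSO. By exon length IGF2BP1 changed places between the lines, from rank 9 to rank 3 of the 10 members.

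**Figure D1:**
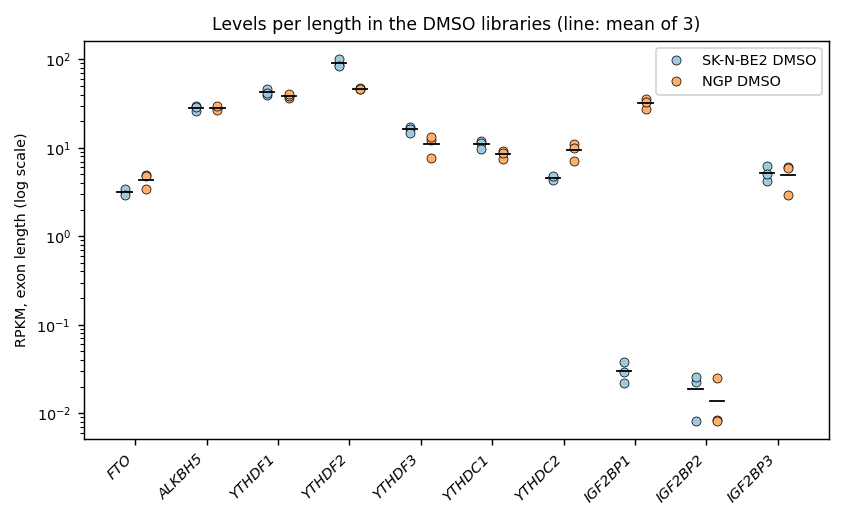
RPKM by exon length on a log axis for the 10 genes in the 6 DMSO libraries; points are libraries and lines are means of 3. IGF2BP1 is the gene whose lines lie farthest apart, near 0.0297 RPKM in SK-N-BE2 and 31.9 RPKM in NGP, while IGF2BP2 lies near the bottom in both.

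Between the DMSO groups, 6 of the 9 tested members differed (edgeR quasi-likelihood test, adjusted p under 0.05), against 71.1% of all 14731 genes tested. FTO, YTHDC2 and IGF2BP1 were higher in NGP, beside 35.4% of genes, and YTHDF2, YTHDF3 and YTHDC1 were lower there, beside 35.7%. The groups did not overlap for 5 of the 9 members and for 68.9% of all genes. The largest difference by far was that of IGF2BP1. The level of YTHDC2 was 1.03 higher in NGP on the log2 scale (SE 0.13, edgeR adjusted p = 5.85e-06), and YTHDF2 lay the other way, with a log2 difference of -0.95 (SE 0.08, edgeR adjusted p = 1.36e-07). Which of these came next in size changed with the fit: they were 0.88 and -0.97 without NGP DMSO replicate 2, and 1.17 and -0.97 without NGP DMSO replicate 1. The difference of YTHDF3 was -0.54, and -0.35 without NGP DMSO replicate 1. These 6 calls were also made by DESeq2 and with each library left out in turn.

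With STM2457, 6 of the 9 tested members changed in SK-N-BE2, where 54.7% of 14013 tested genes changed. FTO rose, beside 26.9% of all genes, and ALKBH5, YTHDF1, YTHDF2, YTHDF3 and YTHDC1 fell, beside 27.8%. The libraries of the groups did not overlap for 5 of the 9, and for 62.2% of all genes. The median log2 change of the 9 members was -0.22, beside -0.02 over all genes. In NGP 3 of 9 changed, where 41.7% of 13610 genes changed. IGF2BP1 and IGF2BP3 rose, beside 19.4% of all genes, and YTHDF1 fell, beside 22.2%, with a median over the 9 of -0.00 beside -0.03. The groups did not overlap for 4 of the 9, and for 54.7% of all genes. The members' counts called in either direction, and those without overlap, lie near these backgrounds in both lines. The 5 of 9 that fell in SK-N-BE2 are a larger share than the 27.8% of all genes. The set was not tested as a whole, so none of these counts is a result about it. IGF2BP2, with 2 to 6 reads in each library, did not pass the filter on low counts in either line. FTO, YTHDF1, YTHDF2 and YTHDF3 each have 1 named pseudogene, and their counts are uncertain to that extent. In SK-N-BE2 only FTO, YTHDF1 and YTHDF2 kept their calls when each library was left out in turn.

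**Figure D2:**
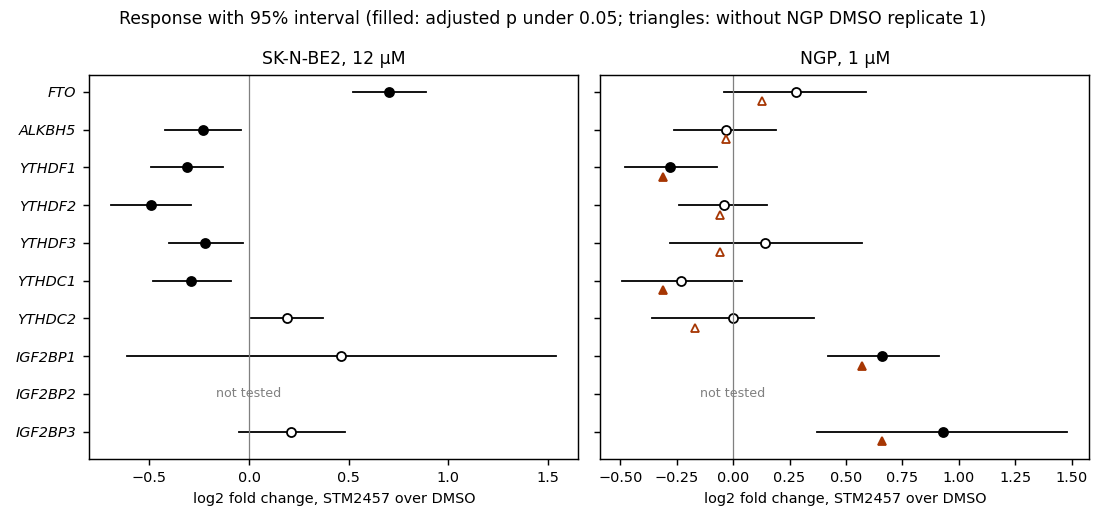
Log2 fold change of each gene, STM2457 over DMSO, with its 95% interval from the edgeR fit of each line; filled points have an adjusted p under 0.05, and triangles leave out NGP DMSO replicate 1. FTO at 0.70 in SK-N-BE2 and IGF2BP3 at 0.93 and IGF2BP1 at 0.66 in NGP are the called rises, and IGF2BP3 moves to 0.66 without that library.

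FTO (chr16:53701692-54158512, plus strand), which demethylates m6A and the cap-adjacent m6Am, was the member with the clearest rise in SK-N-BE2. Its libraries stood at 67.0, 73.7 and 62.1 CPM with DMSO and at 111.6, 116.5 and 110.8 CPM with STM2457. The groups lay far apart, and the rise was 1.63-fold (log2 0.70, SE 0.08, edgeR adjusted p = 1.44e-05). In NGP, where replicate 1 is the low control, the DMSO libraries held 73.4, 104.2 and 102.3 CPM and the STM2457 libraries 112.6, 112.9 and 113.0 CPM. All 3 treated libraries lay above all 3 controls, but the difference (log2 0.28, SE 0.14) was not called by edgeR (adjusted p = 0.143), and without NGP DMSO replicate 1 it was 0.13 (edgeR adjusted p = 0.0849). It was called in NGP in the joint fit of all 12 libraries (0.30, edgeR adjusted p = 0.0459).

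FTO has exons totalling 21379 bases, and in SK-N-BE2 long genes stood slightly higher: the median log2 change was 0.09 over the 3200 tested genes with exons above 8000 bases and -0.11 over the 4880 below 4000. When each library's trend with exon length was removed, FTO still rose in SK-N-BE2, by 0.55 (edgeR adjusted p = 0.000207). Its promoter window overlaps that of RPGRIP1L, a ciliary gene read from the opposite strand, by 204 bases, with 297 bases between the RefSeq starts. RPGRIP1L did not pass the test in either line (log2 0.16 in SK-N-BE2 and -0.07 in NGP). Its NGP change was -0.25 (edgeR adjusted p = 0.0571) without NGP DMSO replicate 1. Between the DMSO groups FTO and RPGRIP1L were both higher in NGP, by 0.47 and 0.58 (edgeR adjusted p = 0.00244 and 0.0028). Of 7 genes around FTO tested in SK-N-BE2, 4 fell (57.1% called, beside 54.7% of all genes). They were led by the homeobox genes IRX6 (-1.26) and IRX3 (-1.21), which were at 5.08 and 3.61 CPM with DMSO. In NGP 1 of 6 fell (16.7%, beside 41.7%). With NGP DMSO replicate 1 left out, 2 fell in NGP, where 57.3% of all genes were called. AKTIP, which has 3 named pseudogenes, fell in both lines (-0.66 and -0.96). The FTO window is shown because RPGRIP1L shares most of it and was not called with STM2457, as FTO was in SK-N-BE2. It is given 5′ to 3′ from RefSeq on GRCh38.p14.
FTO promoter, chr16:53703906-53704205, plus strand: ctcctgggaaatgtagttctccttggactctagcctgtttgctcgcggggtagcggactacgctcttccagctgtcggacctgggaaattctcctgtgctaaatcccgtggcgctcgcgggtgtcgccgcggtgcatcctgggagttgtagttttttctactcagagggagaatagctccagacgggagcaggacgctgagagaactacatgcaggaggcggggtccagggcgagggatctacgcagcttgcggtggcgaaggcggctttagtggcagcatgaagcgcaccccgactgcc

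ALKBH5 (chr17:18183078-18209954, plus strand), a nuclear m6A demethylase, went the other way from FTO in SK-N-BE2. It stood at 92.9, 108.1 and 104.8 CPM with DMSO and at 93.9, 82.8 and 91.2 CPM with STM2457, so that the groups overlapped in 1 library. The fall of 0.23 on the log2 scale (SE 0.09, edgeR adjusted p = 0.041) was kept in 1 of the 6 fits that each left out a library, the one without DMSO replicate 1, with adjusted p-values up to 0.179 in the others. It was also lost when length trends were removed (-0.18, adjusted p = 0.0537). In NGP it was at 102.0, 95.8 and 106.2 CPM and at 94.7, 107.7 and 94.3 CPM, with no call (log2 -0.03, interval -0.26 to 0.19, and likewise -0.03 without NGP DMSO replicate 1).

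Because both erasers are counted in the same library, their ratio does not depend on scaling between libraries. It can still follow a library's trend with exon length, as FTO has 21379 exon bases and ALKBH5 3601. The part of such trends in the shares was not tested. FTO made up 10.1% ± 0.899 (SD, n = 3) of the summed eraser reads per kilobase in SK-N-BE2 with DMSO and 17.6% ± 1.36 with STM2457, with no overlap. In NGP its share was 13.4% ± 2.39 and 16.2% ± 0.999, and the groups overlapped, with a gain of 2.74 points that was 1.43 without NGP DMSO replicate 1. With 3 against 3 libraries an exact permutation test cannot go below p = 0.10, so none of the 12 shares compared here could be called. The share depends on the length used for FTO: with the canonical transcript of 11573 bases the gain in SK-N-BE2 was 10.4 points, against 7.54 by all exons. By reads with no length scaling the share went from 39.9% to 55.9%, a gain of 16.0 points. Of the 7 AlkB relatives of the erasers, none rose, 5 fell in SK-N-BE2 and 3 fell in NGP, where 27.8% and 22.2% of all genes fell. In NGP 3 fell and 2 rose when NGP DMSO replicate 1 was left out, where 57.3% of all genes were called. The DNA and RNA repair enzyme ALKBH3 fell in both lines (-0.70 and -0.95, edgeR adjusted p = 7.97e-05 and 0.00186), as did the tRNA-modifying enzyme ALKBH8 (-0.51 and -0.86). The mitochondrial ALKBH7 fell in SK-N-BE2 (-0.99, edgeR adjusted p = 0.000233) and stood at -0.55 in NGP (adjusted p = 0.159). Their median log2 change was -0.51 in SK-N-BE2 and -0.45 in NGP, beside -0.02 and -0.03 over all genes, and -0.26 in NGP without that library.

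**Figure D3:**
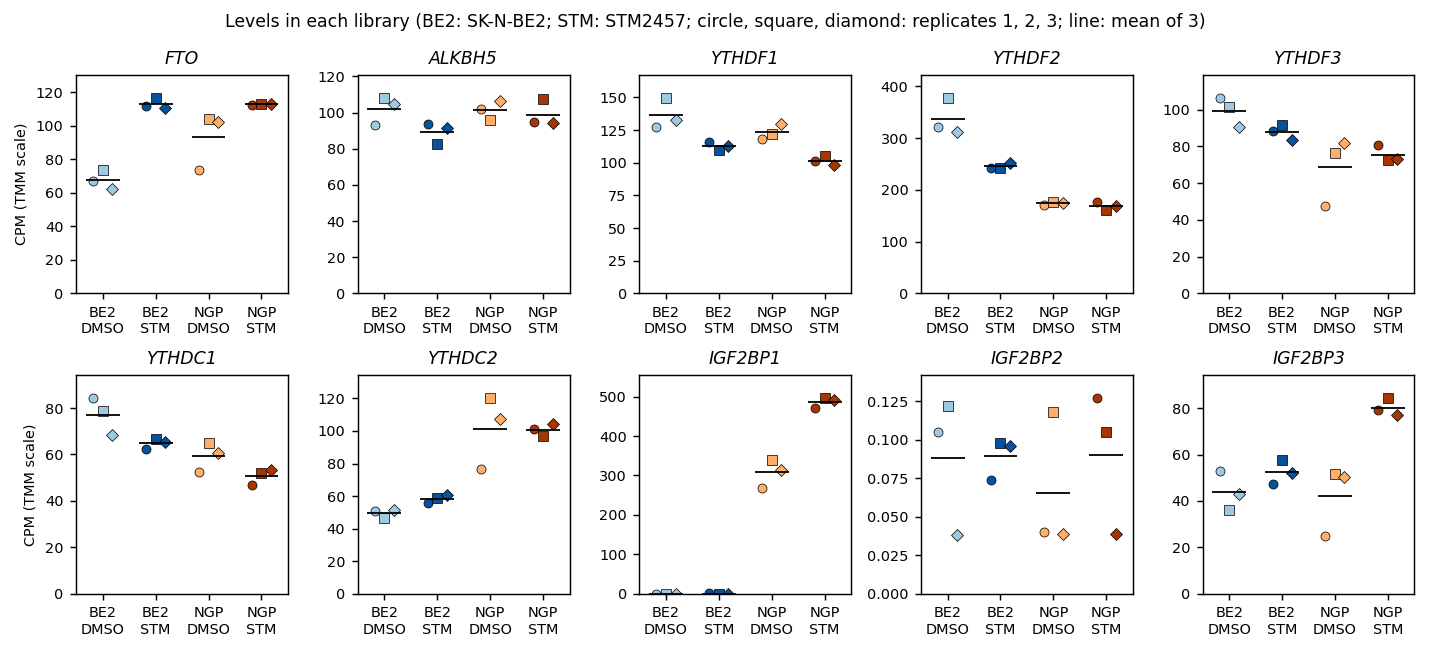
CPM of each gene in the 12 libraries; circles, squares and diamonds are replicates 1, 2 and 3 and lines are means. FTO in SK-N-BE2 and IGF2BP1 and IGF2BP3 in NGP lie higher with STM2457, and the circle of NGP DMSO lies lowest for several long genes, IGF2BP3 (24.9 CPM) among them.

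YTHDF2 (chr1:28736621-28769775, plus strand) had the largest fall of the readers in SK-N-BE2. It stood at 321.6, 377.6 and 311.6 CPM with DMSO and at 243.2, 241.4 and 252.9 CPM with STM2457, with a wide gap between the groups. The fall was 0.49 on the log2 scale (SE 0.09, edgeR adjusted p = 0.000513) and stayed between 0.40 and 0.55 with each library left out in turn. In NGP the groups overlapped at 170.7, 176.5 and 174.2 CPM against 175.8, 160.4 and 169.2 CPM, and the log2 change was -0.04 (interval -0.24 to 0.15), and -0.06 without NGP DMSO replicate 1. YTHDF2 was the member whose response differed between the lines in the test over all 12 libraries, where 30.9% of genes did (difference -0.44, SE 0.12, edgeR adjusted p = 0.0123). By GENCODE 44, 24.7% of the exon bases of YTHDF2 lie under a long noncoding RNA of the opposite strand, whose reads cannot be told apart here.

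YTHDF1 (chr20:63195429-63216139, minus strand), which is tied to translation of its targets, was the member that fell in both lines. In SK-N-BE2 it stood at 127.4, 149.6 and 132.8 CPM with DMSO and at 115.6, 110.1 and 112.6 CPM with STM2457, without overlap (log2 -0.31, SE 0.08, edgeR adjusted p = 0.00629). In NGP it stood at 118.4, 122.4 and 129.5 CPM and at 101.4, 105.3 and 98.3 CPM, again without overlap (log2 -0.28, SE 0.09, edgeR adjusted p = 0.0364). Without NGP DMSO replicate 1 the change was -0.31 (edgeR adjusted p = 0.00254), but the call in NGP was lost with each of the other 5 libraries left out, at most at an adjusted p of 0.163, and with length trends removed (-0.23, adjusted p = 0.102). The difference between the lines' responses was -0.02, with an interval from -0.27 to 0.22. The YTHDF1 promoter window is shown because YTHDF1 fell in both lines and because the window holds CACGTG, the E-box that MYC-family proteins bind. CACGTG reads the same on both strands and occurs in 7.26% of the 35116 RefSeq windows of that length (250 bases before to 50 after the start). Capitals mark it.
YTHDF1 promoter, chr20:63216082-63216381, minus strand: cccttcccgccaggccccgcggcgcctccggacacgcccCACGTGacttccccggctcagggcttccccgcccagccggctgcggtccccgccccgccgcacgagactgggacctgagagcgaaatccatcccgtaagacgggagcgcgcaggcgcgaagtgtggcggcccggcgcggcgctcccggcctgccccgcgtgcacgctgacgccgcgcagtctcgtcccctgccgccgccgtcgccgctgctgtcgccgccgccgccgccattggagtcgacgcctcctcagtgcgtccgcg

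YTHDF3 (chr8:63168553-63212786, plus strand), the remaining cytoplasmic paralog, stood at 106.3, 101.3 and 90.5 CPM in SK-N-BE2 with DMSO and at 88.5, 91.5 and 83.3 CPM with STM2457. The groups overlapped, and the call (log2 -0.22, SE 0.08, edgeR adjusted p = 0.0448) was kept in 1 of the 6 fits that each left out a library, the one without DMSO replicate 3, with adjusted p-values up to 0.192 in the others. In NGP it was at 47.6, 76.5 and 81.5 CPM and at 80.7, 72.8 and 73.2 CPM, where the low value is NGP DMSO replicate 1. Its log2 change there was 0.14 (interval -0.28 to 0.57) and -0.06 without that library, so the sign rests on it. Summed over the 3 paralogs, SK-N-BE2 held 149.1 ± 13.3 RPKM with DMSO and 115.3 ± 1.29 RPKM with STM2457, without overlap. The NGP sums were 96.2 ± 5.16 and 89.2 ± 2.36 RPKM and overlapped, but did not without NGP DMSO replicate 1, when the controls were at 97.9 and 100.3 RPKM. YTHDF2 gave 60.6% ± 0.943 of that sum in SK-N-BE2 controls and 57.2% ± 0.963 with the inhibitor, without overlap.

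The machinery that YTHDF2 recruits for decay, the CCR4-NOT deadenylase with UPF1 and the RNase P/MRP bridge, was mixed. Of 15 genes, 3 rose and 5 fell in SK-N-BE2 (53.3% called, beside 54.7% of all genes), with a median log2 change of -0.04 beside -0.02 over all genes, and 2 rose and 4 fell in NGP (40.0%, beside 41.7%), with a median of -0.22 beside -0.03. In NGP 3 rose and 8 fell when NGP DMSO replicate 1 was left out, where 57.3% of all genes were called. POP1, a subunit of RNase P/MRP, rose in both lines (0.52 and 0.61, edgeR adjusted p = 7.16e-05 and 0.0013). TNKS1BP1, a CCR4-NOT partner, fell in both lines (-0.95 and -0.42), and CNOT11, a CCR4-NOT subunit, fell by 0.72 in NGP and stood at -0.15 in SK-N-BE2 (edgeR adjusted p = 0.161).

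YTHDC1 (chr4:68310387-68350089, minus strand), the nuclear reader, stood at 84.2, 78.9 and 68.5 CPM in SK-N-BE2 with DMSO and at 62.4, 66.8 and 65.5 CPM with STM2457. The lowest control lay just above the highest treated library, and the fall was 0.29 on the log2 scale (SE 0.09, edgeR adjusted p = 0.0151). The call was lost without STM2457 replicate 1 and without STM2457 replicate 3 (adjusted p up to 0.0676). In NGP it stood at 52.5, 65.1 and 60.8 CPM and at 46.7, 52.1 and 53.2 CPM, where the groups overlapped. The NGP change was -0.23 (SE 0.12, edgeR adjusted p = 0.148), and -0.31 (adjusted p = 0.00848) without NGP DMSO replicate 1. The difference between lines was -0.05 (interval -0.36 to 0.27).

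YTHDC2 (chr5:113513694-113595285, plus strand), a helicase needed in the germ line, was higher in NGP than in SK-N-BE2. It stood at 51.0, 46.5 and 51.7 CPM in SK-N-BE2 with DMSO and at 55.7, 58.9 and 60.5 CPM with STM2457, without overlap but without a call (log2 0.19, SE 0.08, edgeR adjusted p = 0.0632). In NGP it stood at 76.4, 120.1 and 107.2 CPM and at 101.3, 96.9 and 104.2 CPM. The NGP controls enclosed the treated libraries, and the log2 change was -0.00 (interval -0.36 to 0.36), and -0.17 (edgeR adjusted p = 0.0647) without NGP DMSO replicate 1. Of the reads per kilobase of both YTHDC genes, YTHDC1 took 70.4% ± 2.89 in SK-N-BE2 with DMSO and 63.1% ± 0.553 with STM2457, and 47.8% ± 3.13 and 43.6% ± 1.93 in NGP, without overlap in either line. In NGP the lowest control share was 45.5% and the highest treated 45.2%, and the change of the mean was -4.24 points, and -2.46 without NGP DMSO replicate 1. Of 5 partners of these readers, 1 rose and none fell in each line, where 54.7% (SK-N-BE2) and 41.7% (NGP) of all genes were called. The risers were the exonuclease XRN1 in SK-N-BE2 (0.37) and the export factor NXF1 in NGP (0.49). In NGP 2 rose and 1 fell when NGP DMSO replicate 1 was left out, where 57.3% of all genes were called. XRN1 stood at -0.16 in NGP (edgeR adjusted p = 0.612) and at -0.43 (adjusted p = 0.000919) without NGP DMSO replicate 1.

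**Figure D4:**
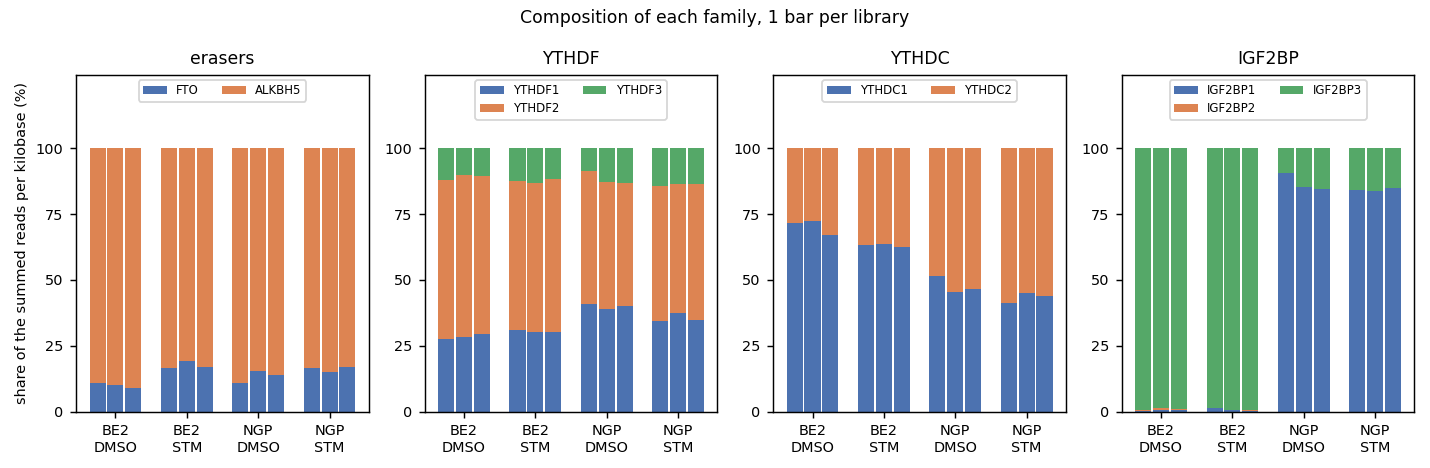
Share of the summed reads per kilobase of each family in each of the 12 libraries, with 1 bar per library. The IGF2BP panel is nearly all IGF2BP3 in SK-N-BE2 (99.0%) and mostly IGF2BP1 in NGP (86.9% with DMSO and 84.3% with STM2457), and the FTO share of the erasers is larger with STM2457 in SK-N-BE2.

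IGF2BP1 (chr17:48997385-49056145, plus strand) differed most between the lines. With DMSO the 3 SK-N-BE2 libraries held 12, 14 and 19 reads and the NGP libraries 13448, 17263 and 16135. The level was 1072-fold higher in NGP (log2 10.07, SE 0.25, edgeR adjusted p = 4.75e-13), rank 54 of 14731 genes tested by the size of the rise. Nearby genes differed far less: of the genes within 250000 bases, named after their values were seen, SNF8 and UBE2Z were 0.67 and 0.49 higher in NGP, CALCOCO2 differed by -0.24, and the largest difference was that of ABI3 (-1.84), which was at 0.479 CPM in SK-N-BE2 and 0.132 CPM in NGP. Without NGP DMSO replicate 1 SNF8 was 0.37 higher and ABI3 differed by -2.78. LIN28B, which blocks let-7 maturation, was 1.79 higher in NGP with DMSO (SE 0.14, edgeR adjusted p = 2.68e-08). Of the 5 tested genes of the let-7 axis and IGF signalling, LIN28B among them, 4 were higher in NGP, beside 35.4% of all genes. The remaining 1, IGF1R, was lower (-1.41), beside 35.7%. IGF2BP3 did not differ between the DMSO groups (log2 -0.06, edgeR adjusted p = 0.814). The microRNAs were not measured.

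IGF2BP1 rose in NGP with STM2457. The libraries stood at 267.4, 340.6 and 315.1 CPM with DMSO and at 472.5, 496.0 and 491.8 CPM with the inhibitor, and the groups lay far apart. The log2 change was 0.66 (SE 0.11, edgeR adjusted p = 0.00176), and 0.57 (edgeR adjusted p = 6.62e-05) without NGP DMSO replicate 1. In SK-N-BE2 the treated libraries held 36, 15 and 13 reads against 12, 14 and 19, so that no difference was detectable at this depth (log2 0.46, interval -0.61 to 1.54). With STM2457 IGF2BP1 was the most abundant member in NGP at 50.5 ± 1.30 RPKM, ahead of YTHDF2 at 45.2 ± 2.08, with no overlap. By canonical transcript length the order was the other way, with YTHDF2 at 61.4 ± 2.82 and IGF2BP1 at 55.3 ± 1.42 RPKM.

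IGF2BP3 (chr7:23310209-23470491, minus strand), the paralog expressed in both lines, stood at 51.4 and 50.4 CPM in NGP DMSO replicates 2 and 3 and at 24.9 CPM in replicate 1, against 79.1, 84.3 and 77.2 CPM with STM2457. All treated libraries lay above all controls. The rise was 0.93 on the log2 scale (SE 0.24, edgeR adjusted p = 0.0155), and 0.66 (edgeR adjusted p = 4.69e-05) without NGP DMSO replicate 1, and was called with each of the 6 libraries left out, at an adjusted p of at most 0.049. With length trends removed it was 0.96 (edgeR adjusted p = 0.00282). In SK-N-BE2 it stood at 52.7, 36.1 and 43.1 CPM and at 47.1, 57.6 and 52.2 CPM, with overlap and no call (log2 0.21, SE 0.12, adjusted p = 0.161). The difference between the lines (-0.70, SE 0.30) was not called (adjusted p = 0.0916) but was without that library (-0.45, adjusted p = 0.0404). Of the exon bases of IGF2BP3, 17.8% are shared with the gene MALSU1 on the other strand, which was not called in either line.

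IGF2BP2 was barely present, with 14, 14, 10 and 13 reads summed over the SK-N-BE2 DMSO, SK-N-BE2 STM2457, NGP DMSO and NGP STM2457 groups. Of 7 partners of the IGF2BP proteins, 2 rose and 2 fell in SK-N-BE2 and 2 rose and 1 fell in NGP. That is 57.1% and 42.9% called, beside 54.7% and 41.7% of all genes. With NGP DMSO replicate 1 left out, 3 rose and 1 fell in NGP, where 57.3% of all genes were called. The RNA helicase DHX9 rose in both lines (0.38 and 0.55) and the poly(A)-binding protein gene PABPC1 fell in both (-0.52 and -0.50). PABPC1 has 13 named pseudogenes and DHX9 has 1, and their counts are uncertain to that extent. Of 5 tested genes of the let-7 axis and IGF signalling, 1 rose and 1 fell in each line. That is 40.0% called, beside 54.7% of all genes in SK-N-BE2 and 41.7% in NGP. With NGP DMSO replicate 1 left out, 2 rose and 1 fell in NGP, where 57.3% of all genes were called. IGF1R, the IGF receptor, rose in both lines (0.29 and 0.96), IGF2 fell by 1.82 in SK-N-BE2, and HMGA1 fell by 0.38 in NGP. HMGA1 has 7 named pseudogenes and its counts are uncertain. By GENCODE 44, 44.4% of the exon bases of IGF2 are shared with another gene, so its value is uncertain.

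The 3′ UTRs of IGF2BP1, IGF2BP2 and IGF2BP3 are shown at their matches to the let-7 seed, since the family is known for let-7 control and IGF2BP1 is the member with the largest difference between the lines. The mature let-7a, from RefSeq on GRCh38.p14, has its seed, bases 2 to 8, in capitals.
hsa-let-7a-5p: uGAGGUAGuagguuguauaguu
The reverse complement of the seed, CTACCTC, is in capitals in the 30-base windows. Only the 3′ UTR of each canonical transcript was searched. It was found there 4 times in IGF2BP1, and 1 time each in IGF2BP2, IGF2BP3 and FTO. It was not found in the 3′ UTRs of the other 6 members. Of 754 3′ UTRs within 20% of the length of that of IGF2BP1, 0.398% hold as many, and 32.8% hold at least 1. For the lengths of IGF2BP2, IGF2BP3 and FTO, 12.9%, 12.4% and 42.2% hold at least 1. These are letters in a window and not measured sites.
IGF2BP1, chr17:49051061-49051090, plus strand: tgtgtgcgaagtaaaCTACCTCaaggtatg
IGF2BP1, chr17:49053698-49053727, plus strand: cagcagtgctagtaaCTACCTCacagagcc
IGF2BP1, chr17:49054352-49054381, plus strand: gtataaatggattaaCTACCTCaatcctta
IGF2BP1, chr17:49054997-49055026, plus strand: tcacttttgttttatCTACCTCttagcaaa
IGF2BP3, chr7:23311788-23311817, minus strand: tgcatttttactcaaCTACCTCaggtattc
IGF2BP2, chr3:185644213-185644242, minus strand: aacacacagaagaagCTACCTCaggtgttt

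The IGF2BP3 promoter window is shown because IGF2BP3 rose in NGP and its window holds CACGTG at 2 places, in capitals; the other windows matched among the members, that of YTHDF1 apart, held none. RefSeq windows were matched for 8 of the 10 members. MYCN did not pass the test in either line (log2 -0.09 in SK-N-BE2 and 0.00 in NGP).
IGF2BP3 promoter, chr7:23470442-23470741, minus strand: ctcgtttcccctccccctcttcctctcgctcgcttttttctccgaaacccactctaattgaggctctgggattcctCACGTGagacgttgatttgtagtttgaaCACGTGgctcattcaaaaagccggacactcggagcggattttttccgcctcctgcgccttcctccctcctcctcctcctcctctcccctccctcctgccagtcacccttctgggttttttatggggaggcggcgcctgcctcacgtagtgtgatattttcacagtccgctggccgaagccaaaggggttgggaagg

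Tested directly, the difference between the responses of the lines gave 1 call among the 9 members, YTHDF2, beside 30.9% of all genes. The change of FTO was larger in SK-N-BE2 by 0.44 (SE 0.16, edgeR adjusted p = 0.0555) and missed the threshold. Without NGP DMSO replicate 1 there were 4 calls among the 9, beside 42.0% of all genes, so this count is no result about the set. The 4 were FTO (0.57, adjusted p = 0.000521), YTHDC2 (0.36, adjusted p = 0.0164), YTHDF2 (-0.44, adjusted p = 0.00705) and IGF2BP3 (-0.45). For the writer complex, whose METTL3 the drug inhibits, 1 of 8 rose and 4 fell in SK-N-BE2 and 3 rose in NGP (62.5% and 37.5% called, beside 54.7% and 41.7% of all genes). Their median log2 change was -0.14 and 0.25, beside -0.02 and -0.03 over all genes. In NGP 4 rose and 1 fell when NGP DMSO replicate 1 was left out, where 57.3% of all genes were called. RBM15, an adaptor of the writer complex, fell by 1.13 in SK-N-BE2 and rose by 0.64 in NGP (0.42 without NGP DMSO replicate 1), and the difference passed the test (-1.76, edgeR adjusted p = 4.67e-05). Of 10 other m6A readers, 5 rose and 2 fell in SK-N-BE2 and 3 rose and 3 fell in NGP. That is 70.0% and 60.0% called, beside 54.7% and 41.7% of all genes. Their medians were 0.16 and -0.10, beside -0.02 and -0.03 over all genes. With NGP DMSO replicate 1 left out, 3 rose and 4 fell in NGP, where 57.3% of all genes were called. SND1 fell in both lines (-0.69 and -0.86), and HNRNPA2B1, which shares 12.5% of its exon bases with another gene, rose in both (0.59 and 0.49). FXR2, a paralog of the fragile X protein, rose by 0.42 in SK-N-BE2 and fell by 0.63 in NGP, and the difference passed the test (1.06, edgeR adjusted p = 0.000108).

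After the mean of each line was removed, each member was matched to the gene whose log2 CPM followed it most closely over the 12 libraries, which all members share. FTO was closest to DESI2 (Pearson r = 0.991), IGF2BP3 to ZFHX4 (0.984), YTHDC2 to NBPF12 (0.976), YTHDF1 to MGAT2 (0.971), YTHDF2 to ETV5 (0.964), YTHDF3 to MAN1A1 (0.955), YTHDC1 to OGA (0.940), ALKBH5 to HAND1 (0.892) and IGF2BP1 to COL11A1 (0.830). The candidates were 10579 genes with at least 10 CPM in a group, and the correlations are a description. IGF2BP2 was too low to match.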

How the data were processed

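The authors deposited unnormalized counts per gene and library. Per the file headers they were made with featureCounts 2.0.5 from paired reads over the exons of each gene name, using the protein-coding genes of GENCODE 33, with no strand option set. The submitters' processing notes list FastQC 0.11.5, Trimmomatic 0.36, HISAT2 2.1.0 and Subread 1.5.3. The build they list is GRCh38. A fragment can add 2 to a count: in each library 72.1% to 75.4% of counts from 1 to 20 were even, so precision at low counts is less than the counts show.

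The 6 libraries of a line were fitted together in edgeR 4.0.16 (R 4.3.3), after filterByExpr (minimum count 10) and TMM scaling, by the quasi-likelihood test. Adjustment was by Benjamini-Hochberg over all genes tested, and calls used 0.05. Responses were compared between lines, and DMSO levels likewise, as contrasts over all 12 libraries. Shares were compared with exact permutation tests. CPM is on the TMM scale, RPKM uses the exon length of the files. The 95% intervals are from the fit. Scaling is relative, with no spike-in used here. DESeq2 1.42.0 was an alternative, and fits were tested on simulated counts. Exon overlaps and 3′ UTRs are from GENCODE 44, sequences from RefSeq and GRCh38.

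The 10 members and METTL3 were always named. From each of 8 lists of pathway genes, up to 2 called genes per line with the largest absolute log2 change were named, and for each member the gene closest to it over the libraries. RPGRIP1L, LIN28B, MALSU1, MYCN and the neighbours of IGF2BP1 lie outside this rule and were chosen after their values were seen. The members and lists were chosen with earlier results of these data known. The replicate numbers come from the sample titles. The value of 1 marker gene is not reported here.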

Additional observations from a re-analysis of the deposited data

Results flagged for a closer look

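YTHDF2 responded differently in the lines, by the test of the difference itself: its log2 change with STM2457 was -0.49 in the one line, SK-N-BE2, against -0.04 in the other. This difference of -0.44 had a standard error of 0.12 and an edgeR adjusted p of 0.0123. It was called with each of the 12 libraries left out in turn, at adjusted p-values from 0.00705 to 0.0397. The lines differ in dose and sequencing run, which cannot be told apart from the line, and the part of the opposite-strand RNA over YTHDF2 was not tested.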

How the results depend on the processing

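Changes of scaling, filter and tool, leaving out each library, a joint fit, a replicate block, halved counts and offsets that remove each library's trend with exon length or GC left every called direction as it was, for the 9 tested members in each comparison. Halved counts, the offsets and the canonical length for shares and levels were chosen after seeing the data. The count of members called in SK-N-BE2 was 6, and 3 in the joint fit of all 12 libraries. With each library left out it ranged from 3 to 6, and was 3 without SK-N-BE2 STM2457 replicate 1 and without replicate 3. The count for the difference between lines was 1, and 2 without the filter, 2 with length offsets and 3 with GC offsets. It ranged from 1 to 4 with each library left out. It was 4 without NGP DMSO replicate 1, where 42.0% of all genes were called, and 2 without NGP DMSO replicate 2. For that difference FTO was added without the filter (0.47, edgeR adjusted p = 0.047) and with GC offsets (0.47, 0.0145), and IGF2BP3 with length offsets (-0.77, 0.0196) and GC offsets (-0.73, 0.0253). In NGP the count was 3, with a range of 2 to 4. FTO in NGP was called with length offsets (0.22, edgeR adjusted p = 0.0438) and in the joint fit, YTHDC1 with GC offsets (-0.24, adjusted p = 0.0434).

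The replicate numbers gave no sign of pairing: deviations of same-numbered libraries correlated between -0.252 and 0.156. Those of differently numbered libraries correlated between -0.482 and 0.425. With 3 libraries in a group these values cannot settle whether the libraries were paired. With the replicate block, 4 members were called in SK-N-BE2, where ALKBH5 (adjusted p = 0.0617) and YTHDF3 (0.0517) were lost, and 2 in NGP, where YTHDF1 (0.102) was lost; the block left 1 call for the difference and 6 for the DMSO levels. IGF2BP1 in SK-N-BE2 and IGF2BP2 in both lines are limited by depth.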
